A study of Rattus norvegicus with 8 samples.

Results

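The subunits of the receptors for GABA, glycine and glutamate were described in the rat hypothalamus, the brain region that governs pituitary hormones, feeding, temperature and reproduction. Members were the array probes whose gene name in the array files begins as a GABA-A or rho subunit (Gabra to Gabrr), a GABA-B subunit (Gabbr1, Gabbr2), a glycine receptor subunit (Glra, Glrb), an AMPA, delta, kainate or NMDA subunit (Gria, Grid, Grik, Grin) or a metabotropic glutamate receptor (Grm). This gave 61 unique probes of 51 genes, on 97 spots, out of 30367 unique probes on 42877 spots and 17239 named genes. The genes were 16 GABA-A, 3 rho, 2 GABA-B, 5 glycine, 4 AMPA, 4 kainate, 2 delta, 6 NMDA and 8 metabotropic glutamate receptor subunits, and 1 scaffold protein that is not itself a subunit.

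The study set 4 females in estrus against 4 males, all Sprague Dawley rats of 3 to 4 months, and read RNA of the hypothalamus by 2-colour microarray. On each array 1 female met 1 male of the other dye. Cy3 marked the female on arrays 1 and 3 and the male on arrays 2 and 4, and Cy5 the other animal. Replicate numbers are those of the arrays. No animal was treated, and because every female was in estrus, sex and stage of the cycle cannot be told apart.

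GABA opens the pentameric GABA-A chloride channels, whose subunit makeup sets where they sit and which drugs bind them, and acts more slowly through the G protein-coupled GABA-B receptor. Glycine opens a related chloride channel whose beta subunit ties it to the scaffold protein gephyrin. Glutamate opens the tetrameric AMPA, kainate and NMDA channels and acts through metabotropic receptors, of which the group of Grm5 couples to calcium release and the others restrain cyclic AMP. Steroid metabolites modulate GABA-A receptors in the hypothalamus, and both GABA and glutamate drive the neurons that release gonadotropin-releasing hormone.

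Each probe is 60 bases of 1 transcript, and its values speak for that stretch only. The sequences shown here are those of subunits on which the results turn. The probes for Gria2 and Gria3 were the most alike pair of different subunits, with 36 identical bases over 50 aligned without gaps, and the only pair of the 1830 above 70% identity; the identical bases are in capitals. Uptake of a partner's transcript by a probe was not tested.
Gria2: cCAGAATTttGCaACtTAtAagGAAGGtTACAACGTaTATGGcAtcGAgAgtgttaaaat
Gria3: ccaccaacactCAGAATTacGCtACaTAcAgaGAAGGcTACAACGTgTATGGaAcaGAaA
The Gria2 probe lies at chr2:172269214-172269273 and the Gria3 probe at chrX:3459714-3459773, both on the minus strand of rn4. This Gria3 probe is the dimmer of 2, with a ratio of -0.23. The brighter Gria3 probe, with a ratio of -0.57, lies at chrX:3452571-3452630 and is not shown. The probes of the GABA-A alpha subunits Gabra2 and Gabra3 shared 33 of 54 aligned bases, again in capitals, and each spans an intron, so that it matches spliced RNA.
Gabra2: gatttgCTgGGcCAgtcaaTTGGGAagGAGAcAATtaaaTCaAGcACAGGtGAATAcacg
Gabra3: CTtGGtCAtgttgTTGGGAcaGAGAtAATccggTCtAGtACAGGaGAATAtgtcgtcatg
The footprint of the Gabra2 probe is chr14:39661796-39662852 on the plus strand, with 997 intron bases inside, and that of the Gabra3 probe chrX:158416663-158422492 on the minus strand, with 5770. The glycine receptor beta subunit, with the smallest p, and the metabotropic receptors Grm7 and Grm8, whose ratios lay on opposite sides of 0, were read with these probes, in lower case throughout because nothing in them is singled out.
Glrb: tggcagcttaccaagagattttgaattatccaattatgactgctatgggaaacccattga
Grm7: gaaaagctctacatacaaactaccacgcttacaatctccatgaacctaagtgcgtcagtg
Grm8: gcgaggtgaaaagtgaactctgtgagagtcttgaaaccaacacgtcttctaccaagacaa
They lie at chr2:172451970-172452029 (minus), chr4:147088377-147201215 (plus) and chr4:53976813-53983310 (minus) of rn4, and the Grm7 and Grm8 footprints hold 112779 and 6438 intron bases. No annotation of this build was used here, so the exons are not numbered.

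Samples labelled with Cy3 had a median background-corrected signal of 502 to 530 and those with Cy5 of 148 to 272. Of the spots, 77.6% to 87% rose well above background and 0 were saturated. The sample of male replicate 2 stood apart from the others. Deviations are given here as the log2 level of a sample minus the mean of the 4 samples of the same dye, which includes the sample itself. Of 19 hypothalamic markers 17 were well above background in all 8 samples, but their median deviation was -1.80 in male replicate 2 against -0.04 to 0.60 in the other 7, and its vasopressin gene Avp stood at -3.39. Not all of them fell: in the same sample Npy stood at 0.22, Sst at -0.11 and Otp at -0.12. Of 15 tested markers of cortex, hippocampus and striatum 12 were highest in that sample, with a median deviation of 1.33 against -0.51 to 0.37 elsewhere, and Neurod6 at 4.50 and Neurod2 at 4.10. Female replicate 2, on the same array, was the next highest at 0.37, with Neurod6 at 2.61. Not all of this list rose in male replicate 2: Rgs9 stood at -0.68 and Rasgrp2 at -0.91 there, and Ppp1r1b at 0.34. The summed deviations of the cortical list ran from -9.14 to 7.85 in females and from -6.14 to 22.07 in males, and those of the hypothalamic list from 0.58 to 10.75 and from -31.77 to 10.47. The label of male replicate 2 is kept, and results that rest on it are given with and without the array of replicate 2. A fit without replicate 2, or without replicate 4, holds 1 array with the female in Cy5. The only spread between arrays in its SE and p is that of arrays 1 and 3. Beside it, limma brings in a variance pooled over all probes, so a small SE there is no measure of the spread between animals.

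**Figure D1:**
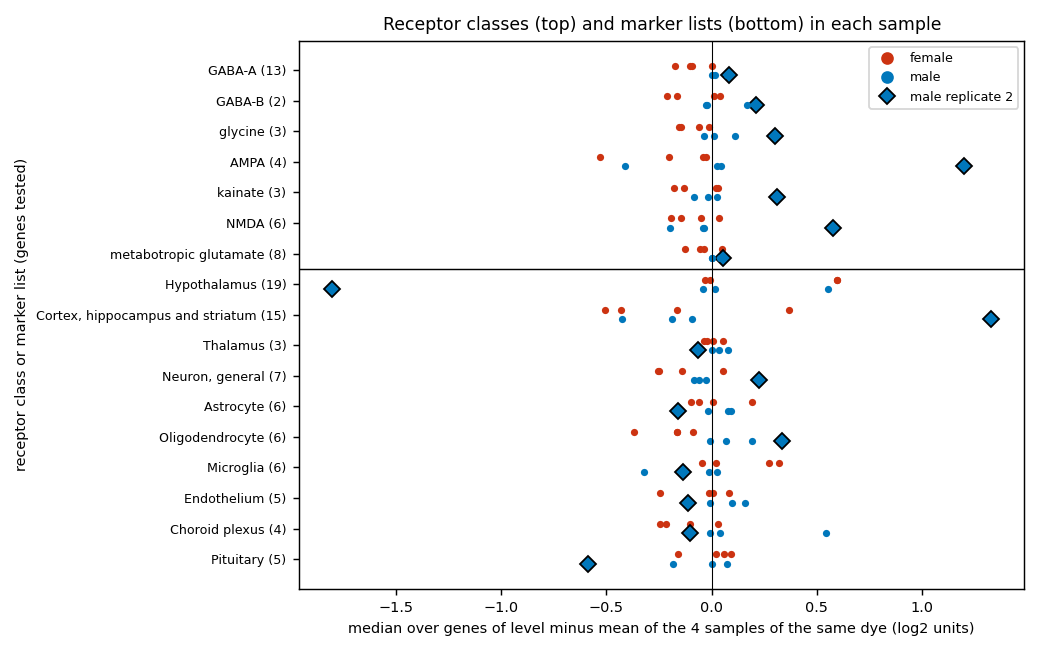
Median over genes of the level in each sample minus the mean of the 4 samples of the same dye (log2 units, horizontal), for 7 receptor classes (top) and 10 marker lists (bottom), with the number of genes tested in brackets. Red points are females, blue points males, and the outlined diamond is male replicate 2, which stands at 1.20 for the AMPA class, -1.80 for the hypothalamic list and 1.33 for the list of cortex, hippocampus and striatum.

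Most subunits were measurable. A probe was tested if every sample of 1 sex or the other saw more than 0.5 of its spots well above background, which kept 52 probes of 42 genes. For 50 probes this held in each of the 8 samples. The probe of Gabrg3 passed through the males alone, with 2 females and 4 males well above background. So did the dimmer probe of Grik2, with 3 females and 4 males. The 9 genes not tested were Gabra6, Gabre, Gabrp, the rho subunits Gabrr1, Gabrr2 and Gabrr3, Glra3, Glra4 and Grik3. Gabrp and Gabrr1 were well above background in 0 of 8 samples, Gabra6 and Glra4 in 1, Gabre in 2, Gabrr3 in 3, Gabrr2 and Glra3 in 4, and Grik3 in 5. Gabra6 is the alpha subunit of cerebellar granule cells and the rho subunits form the GABA channels of the retina.

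No receptor probe differed between the sexes after adjustment. With limma, 0 of 52 probes had an adjusted p (Benjamini-Hochberg over 21995 probes) under 0.05, against 0% of all probes. At an unadjusted limma p under 0.05 there were 8 of 52 probes, or 15.4%, where 8.50% of all probes reached it. Of these 7 were lower in females, where 3.52% of all probes were, and 1 was higher, where 4.98% of all probes were. Among these were the probes of Glrb, Grm7, Grm5, Gabra4, Gabbr2 and Gabra2, lower in females, and of Grm8, higher. By gene, 8 of 41 subunits (19.5%) reached it at their brightest tested probe, where 8.71% of all named genes did. The ratio of female over male on the log2 scale was below 0 for 30 of 41 subunit genes (73.2%) with a median of -0.13, while 44.7% of all 13383 named genes lay below 0 with a median of 0.02. Without replicate 2 the ratio was below 0 for 32 of 41, with a median of -0.09 against 0.02. On arrays 1 to 4 it was below 0 for 21, 30, 22 and 29 of 41, with medians of -0.006, -0.41, -0.02 and -0.13. Of all 13383 named genes, 6292, 6913, 6452 and 7031 lay below 0 on these arrays. The excess below 0 was smaller on arrays 1 and 3, where the female carried Cy3. In whole tissue, fewer cells of a type and less RNA per cell cannot be told apart.

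Ratios of region and cell type markers are given beside those of the receptors. The hypothalamic list had a median ratio of 0.63 (0.01 without replicate 2). The list of cortex, hippocampus and striatum had -0.39 (-0.05 without replicate 2), and the pituitary list 0.27 (0.005 without it). The astrocyte and endothelium lists had 0.06 and -0.03 (-0.02 and -0.04 without replicate 2). The 7 markers of neurons in general had 4 below 0 and a median ratio of -0.22 (-0.10 without replicate 2), and their summed deviation was -1.66 to -0.40 in females and 0.04 to 2.67 in males, which did not overlap. The 6 oligodendrocyte markers were all below 0 with a median ratio of -0.29 (-0.19 without replicate 2), with sums of -2.52 to 0.09 in females and 0.09 to 1.24 in males. The 4 tested choroid plexus markers were all below 0 with a median of -0.21 (-0.36 without replicate 2). Their median deviation was 0.54 in male replicate 4 against -0.24 to 0.04 in the other samples. Their summed deviation was 4.54 there against -2.94 to 0.59 elsewhere, so male replicate 4 stood apart in this list. Ttr had a ratio of -1.79, and Folr1, Kcne2 and Clic6 had -0.28 to -0.06. How far the list rests on male replicate 4 was not tested. Of 6 microglia markers 2 were below 0, with a median of 0.24 (0.14 without replicate 2). None of these lists had a marker that passed an adjusted p under 0.05. The part of these markers in the receptor ratios was not tested.

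**Figure D2:**
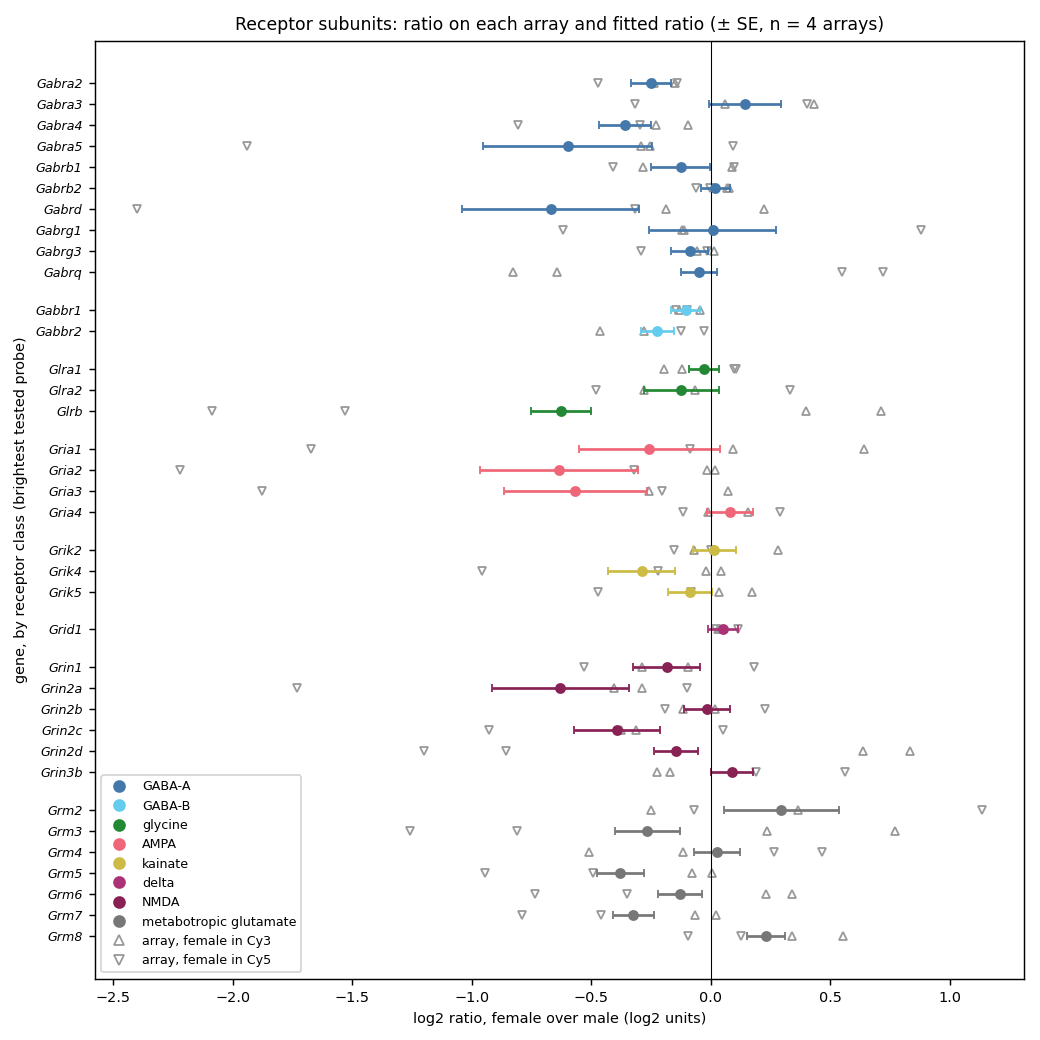
Log2 ratio of female over male (horizontal) for 36 of 41 subunit genes by class, at the brightest tested probe. Grey triangles are the 4 arrays, pointing up where the female carried Cy3 and down where it carried Cy5, and coloured points with bars are the fitted ratio ± SE (n = 4 arrays). Of the 36 fitted ratios shown 26 lie below 0, and the single array farthest to the left for Gabrd, Gria2, Gria3, Gabra5 and Grin2a is that of replicate 2.

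Among GABA-A subunits, 10 of 13 tested genes lay below 0, with a median ratio of -0.15 and a range of -0.67 to 0.14, and 3 of them had an unadjusted limma p under 0.05. Gabra4, an alpha subunit of receptors outside the synapse, stood at 7.75, 8.06, 7.57 and 7.61 in females and at 7.85, 8.87, 7.80 and 7.91 in males. Female replicate 2 was above 3 males, and male replicate 2 lay apart at the top. The ratio was -0.36 ± 0.11 (SE, n = 4 arrays), below 0 on all 4 arrays (limma, adjusted p = 0.555), and -0.23 ± 0.07 without replicate 2. Gabra2, the alpha subunit tied to the calming effect of benzodiazepines, was at 8.31, 8.42, 8.13 and 8.19 in females and 8.46, 8.89, 8.36 and 8.34 in males. Only male replicates 3 and 4 fell below the highest female. Its ratio was -0.25 ± 0.08, again below 0 on all 4 arrays (limma, adjusted p = 0.555), and -0.17 ± 0.07 without replicate 2.

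The lowest ratios of the class belonged to Gabrd and Gabra5, described here because of values seen in male replicate 2. Gabrd, the delta subunit that carries tonic inhibition and responds to neurosteroids, was at 8.09, 9.41, 8.32 and 8.27 in females and at 8.27, 11.81, 8.09 and 8.59 in males. Both animals of array 2 were the highest of their sex, and the other 6 overlapped. The ratio was -0.67 ± 0.37 (limma, adjusted p = 0.565) and -0.15 ± 0.11 without replicate 2. Gabra5, an alpha subunit abundant in hippocampus, was at 9.47 to 9.67 in females and at 9.41, 9.77 and 9.81 in 3 males but at 11.61 in male replicate 2. Its ratio of -0.60 ± 0.35 became -0.09 ± 0.07 without that array. Gabrg1, a gamma subunit of amygdala and hypothalamus, went the other way, with male replicate 2 at 8.77 against 9.92 to 10.36 in the other males and 9.65 to 9.84 in females. Its ratio was 0.01 ± 0.26 with all arrays and -0.37 ± 0.07 without replicate 2.

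Of the other tested GABA-A genes, Gabra3, Gabrb1, Gabrb2, Gabrg3 and Gabrq had ratios of -0.13 to 0.14 and no unadjusted limma p under 0.05. Gabrg3, at -0.09, was tested through the males alone and is counted among the genes below 0, so its direction is described only. The gene for the theta subunit, Gabrq, a subunit of hypothalamus and monoamine nuclei, followed the dye, with ratios of -0.64 and -0.83 where the female carried Cy3 and of 0.55 and 0.72 where it carried Cy5. GABA-A genes lie in clusters, and their ratios follow in order of position. On rn4 chromosome 14 the order Gabrb1, Gabra4, Gabra2, Gabrg1 had ratios of -0.13, -0.36, -0.25 and 0.01. On chromosome 1, Gabrg3 and Gabra5 had -0.09 and -0.60.

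Both GABA-B genes lay below 0. Gabbr2, the subunit that couples the receptor to its G protein, was at 13.49, 13.95, 13.19 and 13.68 in females and at 13.77, 14.08, 13.65 and 13.70 in males. The sexes overlapped, although each female was below the male of its own array. Its ratio was -0.22 ± 0.07, 1.17-fold higher in males (limma, adjusted p = 0.555), and -0.20 ± 0.08 without replicate 2. Gabbr1, which binds GABA, had 3 probes with ratios of -0.39, -0.11 and -0.02, each from another stretch of the transcript. The probe at -0.39 ± 0.19 was above 0 on array 2 alone and became -0.63 ± 0.08 without it (limma, adjusted p = 0.598).

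Of 3 glycine receptor genes tested, all lay below 0 with a median of -0.12. Without replicate 2 it was 2 of 3 with a median of -0.03. Glrb had the smallest p of all subunits. Glrb encodes the beta subunit, which anchors glycine receptors at synapses through gephyrin. Its log2 levels were 10.08, 8.45, 9.92 and 8.88 in females and 9.37, 10.54, 9.52 and 10.40 in males. Among samples in Cy3 both females (10.08 and 9.92) were below both males (10.54 and 10.40), and in Cy5 both females (8.45 and 8.88) were below both males (9.37 and 9.52). On the arrays the ratio was 0.71, -2.09, 0.40 and -1.53, so its sign followed the dye, and the dye effect of the probe was 1.18 on the log2 scale (limma, adjusted p = 0.0218). An adjusted p under 0.05 for dye was reached by 7 of 52 receptor probes (13.5%) and by 12.7% of all probes. With dye in the fit the ratio was -0.63 ± 0.13, 1.54-fold higher in males (limma, adjusted p = 0.555), and -0.49 ± 0.10 without replicate 2. The alpha subunits Glra1 and Glra2 had ratios of -0.03 ± 0.06 and -0.12 ± 0.16, and Glra2 turned to 0.08 without replicate 2, where male replicate 2 had deviated by 0.64. The Glrb probe lies 182.7 kb from that of Gria2 on chromosome 2 of rn4.

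**Figure D3:**
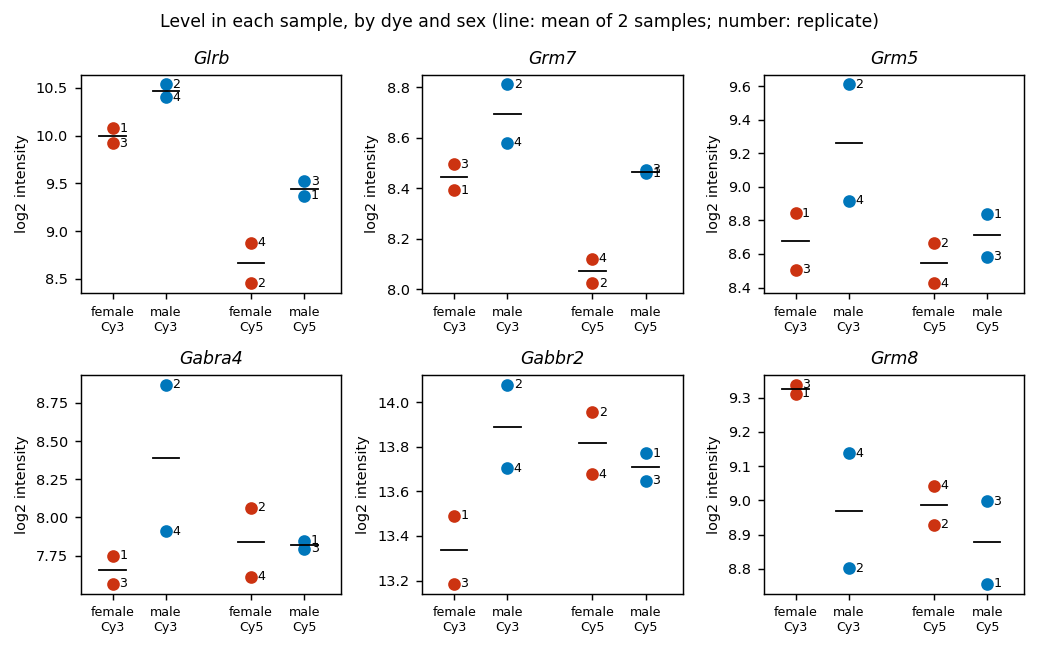
Log2 intensity in each sample (vertical) for 6 genes, with females in red and males in blue, set apart by dye; the number beside a point is its replicate and the line is the mean of the 2 samples. For Glrb and Grm7 both females lie below both males within each dye, while for Gabra4, Gabbr2, Grm5 and Grm8 the sexes overlap within at least 1 dye.

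Within each dye, both females lay below both males for 4 of 52 receptor probes, or 7.69%, where 3.56% of all probes did so. Among these were the probe of Glrb, that of Grm7 and 1 of 2 probes of Gria3. Both females lay above both males for 0 of 52 probes, where 5.43% of all probes did.

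The AMPA class, which carries fast excitation, had the lowest class median at -0.41. Without replicate 2 the median was -0.08. In either fit 3 of 4 genes lay below 0, but they were not the same genes. Gria1 turned from -0.26 to 0.14 and Gria4 from 0.08 to -0.02. Gria2, the subunit that keeps most AMPA receptors closed to calcium, was at 11.88, 11.67, 11.95 and 11.62 in females and at 11.86, 13.89, 11.97 and 11.94 in males. Male replicate 2 was far above the other 7, which spanned 11.62 to 11.97. The ratio was -0.63 ± 0.33 (limma, adjusted p = 0.558) and -0.16 ± 0.07 without replicate 2. Its second probe, at 7.74 to 8.22 in females and 7.80 to 8.56 in males, gave -0.13 ± 0.08.

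Gria3 showed the same sample apart at both probes. The brighter was at 11.56, 11.64, 11.72 and 11.60 in females and at 11.82, 13.51, 11.65 and 11.81 in males. Male replicate 3 at 11.65 was below female replicate 3, although they carried different dyes. The ratio was -0.57 ± 0.30 (limma, adjusted p = 0.561) and -0.15 ± 0.10 without replicate 2, and the other probe gave -0.23 ± 0.12. Gria1, measured on 10 spots per array, was at 9.71, 9.60, 10.26 and 9.62 in females and at 9.62, 11.27, 9.62 and 9.71 in males. Its ratio was -0.26 ± 0.29 and turned to 0.14 ± 0.14 without replicate 2. On array 2 its mean ratio of -1.67 had an SD of 0.34 over 10 spots. Gria4 had ratios of 0.08 and 0.07 at its 2 probes. By deviation from the mean of its dye, male replicate 2 was the lowest of the 8 samples at both (-0.26 and -0.41). By level, female replicate 4 was the lowest at the dimmer probe, at 8.57 against 8.82 in male replicate 2.

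Of 3 kainate receptor genes tested, Grik4 was the one with the smallest p. Grik4 encodes a high-affinity subunit found in hippocampal CA3. It was at 8.91, 8.98, 8.87 and 8.73 in females and at 8.87, 9.94, 8.89 and 8.95 in males. The other 7 samples lay between 8.73 and 8.98, below male replicate 2. The ratio was -0.29 ± 0.14 (limma, adjusted p = 0.555) and -0.10 ± 0.07 without replicate 2. Grik2 and Grik5 had ratios of 0.01 and -0.09. The delta subunits bind cerebellins and are not opened by glutamate, and Grid1 had a ratio of 0.05 ± 0.06.

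Of 6 NMDA receptor genes, 5 lay below 0, with a median of -0.16, which was -0.03 without replicate 2. Grin2a, a subunit that rises as forebrain synapses mature, was at 8.07, 8.96, 8.11 and 8.18 in females and at 8.47, 10.69, 8.40 and 8.28 in males. Both animals of array 2 were the highest of their sex, and the other 3 females were all below the other 3 males. Its ratio was -0.63 ± 0.29, below 0 on all 4 arrays (limma, adjusted p = 0.555), and -0.22 ± 0.07 without replicate 2. Grin2c was at 12.15, 12.16, 11.82 and 12.17 in females and at 12.46, 13.09, 12.19 and 12.12 in males. Only male replicate 4 fell within the range of the females, and the ratio was -0.39 ± 0.18 and -0.15 ± 0.07 without replicate 2. Grin2d, a subunit of interneurons and diencephalon, followed the dye, with ratios of 0.83 and 0.64 on arrays 1 and 3 and of -1.20 and -0.86 on arrays 2 and 4. Its fitted ratio was -0.15 ± 0.09. The obligatory subunit Grin1 had -0.18 and -0.10 at its 2 probes, Grin2b -0.02 and Grin3b 0.09.

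Among 8 metabotropic glutamate receptors, 5 lay below 0, with a median of -0.07 (-0.14 without replicate 2), and 3 had an unadjusted limma p under 0.05. Grm7, a presynaptic receptor of low affinity that limits transmitter release, was at 8.39, 8.02, 8.50 and 8.12 in females and at 8.46, 8.81, 8.47 and 8.58 in males. Female replicate 3 overlapped the lower males over all samples, but within each dye both females were below both males. The ratio was -0.32 ± 0.08, 1.25-fold higher in males (limma, adjusted p = 0.555), and -0.24 ± 0.07 without replicate 2. Grm5, a postsynaptic receptor that couples to calcium release, was at 8.84, 8.66, 8.51 and 8.42 in females and at 8.84, 9.61, 8.58 and 8.92 in males. The sexes overlapped, with male replicate 2 at the top, and the ratio was -0.38 ± 0.10 (limma, adjusted p = 0.555) and -0.26 ± 0.07 without replicate 2.

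Grm8, a presynaptic receptor close to Grm7 in sequence and class, lay on the other side of 0. It was at 9.31, 8.93, 9.34 and 9.04 in females and at 8.76, 8.80, 9.00 and 9.14 in males. In Cy3 both females were above both males, and in Cy5 male replicate 3 lay between the females. The ratio was 0.23 ± 0.08, 1.17-fold higher in females (limma, adjusted p = 0.555), and 0.18 ± 0.08 without replicate 2. Grm2, named after its value was seen, had the highest ratio of all subunits at 0.30 ± 0.24, with male replicate 4 low (9.90 against 10.51 to 11.19 in the other males). It was 0.60 ± 0.15 without replicate 2 and -0.01 without replicate 4. Of the others, Grm3, Grm4 and Grm6 had ratios of -0.26 to 0.03. The 2 probes of Grm4 overlap by 15 bases and gave 0.03 and 0.07.

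Male replicate 2 was the highest of the 8 samples, by deviation from the mean of its dye, for 25 of 52 receptor probes (48.1%), where it was highest for 24.4% of all probes. It was the lowest for 7 (13.5%), where it was lowest for 26.8% of all probes. It lay over 1 log2 unit above the mean of its dye for 6 probes (11.5%), where 1.91% of all probes did. These 6 were Gabrd at 2.61, Grin2a at 1.90, Gabra5 at 1.60, Gria2 at 1.48, Gria3 at 1.36 and Gria1 at 1.03. The lowest was Gabrg1 at -0.93. The hypothalamic and cortical markers that moved in this sample are given above, and their part in these levels was not tested.

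**Figure D4:**
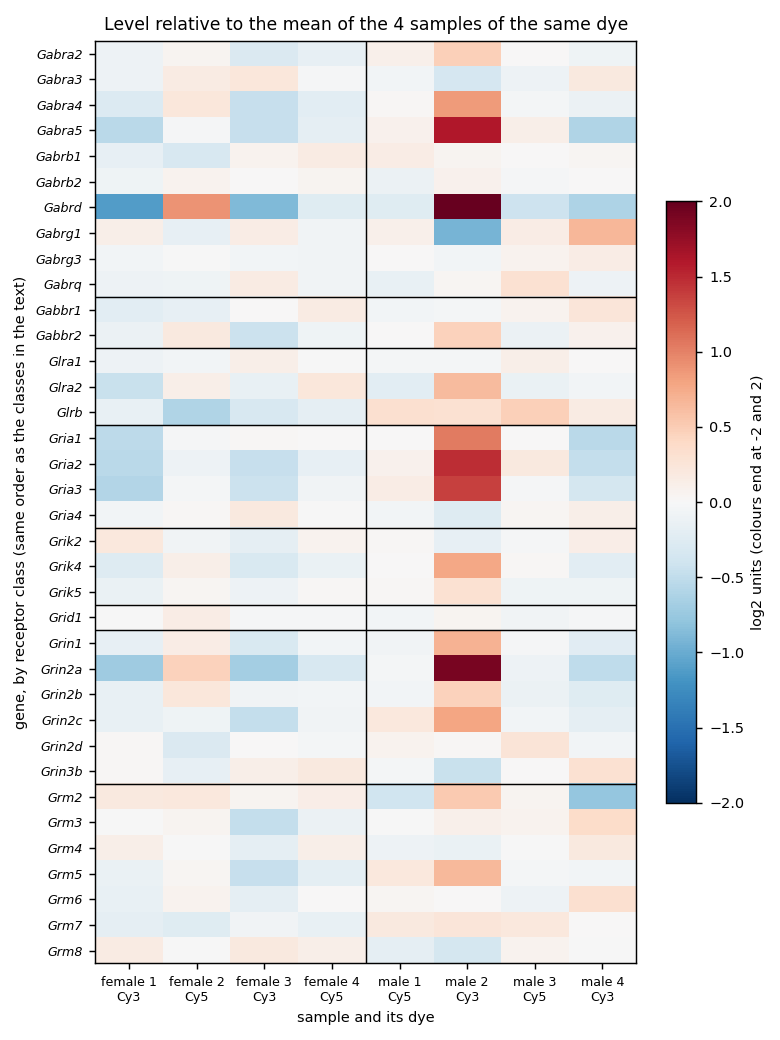
Level of 36 of 41 subunit genes (rows, by class) in each sample (columns, females left, males right, with the dye of each) minus the mean of the 4 samples of the same dye, in log2 units. Red is above and blue below that mean, with colours ending at -2 and 2; male replicate 2 is red for Gabra5, Gabrd, Gria1, Gria2, Gria3 and Grin2a and blue for Gabrg1.

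Without replicate 2, 10 of 52 receptor probes had an unadjusted limma p under 0.05, where 7.99% of all probes did, and 9 were lower in females, where 3.82% of all probes were. Among these were probes of Gabbr1, Gabra4, Gabrg1, Glrb, Grin2a, Grm5, Grm6 and Grm7, and of Grm2 as the 1 higher in females, and the smallest limma adjusted p was 0.598. Of the 8 probes with all arrays and these 10, 4 were in both: Glrb, Grm5, Grm7 and Gabra4. Leaving out replicate 4 instead kept male replicate 2 and gave 10 receptor probes at an adjusted p under 0.05, all lower in females, where 6.78% of all probes passed. These were Gria2, Gria3, Gabra4, Gabra5, Gabrd, Grin2a, Grin2c, Glrb, Grik4 and Grm5, with ratios between -1.19 for Gabrd and -0.47 for Grik4.

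**Figure D5:**
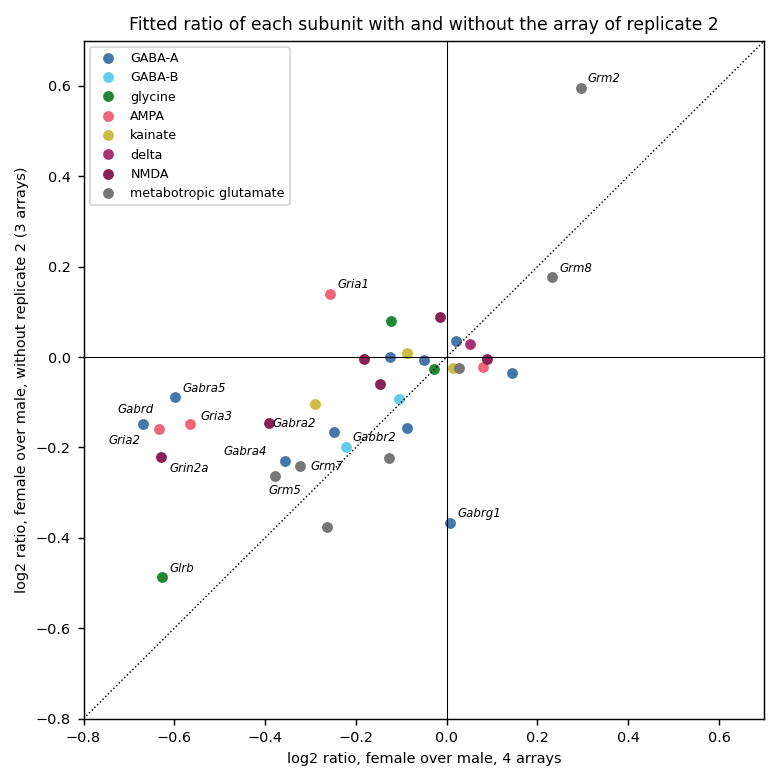
Fitted log2 ratio of female over male for 36 of 41 subunit genes with all 4 arrays (horizontal) and without the array of replicate 2 (vertical), coloured by class; the dotted line marks equal values. Gabra5, Gabrd, Gria2, Gria3 and Grin2a lie between -0.67 and -0.57 on 4 arrays and between -0.22 and -0.09 on 3, while Glrb lies at -0.63 and -0.49.

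Proteins that build, anchor and supply these receptors were read from 8 lists of 75 genes, of which 67 were tested. Of these 41 (61.2%) lay below 0, where 44.7% of all named genes did, and 0 had an adjusted p under 0.05. At an unadjusted limma p under 0.05 there were 3 lower and 1 higher in females, or 5.97%, where 8.71% of all named genes reached it. Gphn, the gene for gephyrin, which anchors glycine and GABA-A receptors, had ratios of -0.02, -0.92, -0.19 and -0.55 on the 4 arrays. Its fitted ratio was -0.42 ± 0.09 (limma, adjusted p = 0.555) and -0.33 without replicate 2, and its level in male replicate 2 deviated by 0.05. The postsynaptic scaffold genes Dlgap3 and Dlgap1 had ratios of -0.48 and -0.20, and the glutaminase Gls2 had 0.26. Of 16 scaffold genes of glutamate synapses 13 lay below 0, with a median of -0.14 that was -0.02 without replicate 2. Of 11 AMPA receptor auxiliary genes 8 lay below 0 (median -0.09, and -0.02 without replicate 2), and of 19 genes for synthesis and transport of the transmitters 9 did (median 0.01, and -0.02 without replicate 2). Both chloride transporters lay below 0 (median -0.16) and 4 of 10 inhibitory scaffold genes did. The 3 GABA-B auxiliary genes had a median of -0.02, which was 0.11 without replicate 2.

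Some partners of kainate and delta receptors deviated far in male replicate 2 and others did not. Neto1, a kainate receptor auxiliary subunit, deviated by 1.82 there and Neto2 by 0.06. The delta receptor ligands Cbln1, Cbln2 and Cbln4 deviated by -2.20, -1.24 and -1.35 and Cbln3 by 0.12. The ratios of Neto1, Cbln1, Cbln2 and Cbln4, -0.72, 0.76, 0.42 and 0.74, became -0.05, -0.04, -0.06 and 0.24 without replicate 2.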

How the data were processed

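Hypothalamic RNA of 4 female and 4 male rats was read on 4 two-colour Agilent arrays of 1 slide. Agilent Feature Extraction 10.7.3.1 read the scans, per the submitters' processing notes. Spot and background signals are raw intensity values, and the software's own log ratio is log10 of red over green, per the file headers. The table that the authors deposited holds log2 values of median signal less background, less a constant per column. Probe positions are on rn4.

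Mean signals were corrected with normexp (offset 50), normalized by loess within arrays (controls at weight 0), cleared of outlier spots and averaged per probe. Levels are log2 intensities in the sample's own channel after loess and Aquantile normalization. Log2 ratios, female over male, were modelled with limma 3.58.1 under R 4.3.3, with a dye term per gene. Tests are two-sided, and p-values were adjusted by Benjamini-Hochberg over 21995 probes, with 2 residual degrees of freedom. A gene was represented by its brightest tested probe. The labels name separate animals, and having 4 arrays limits the precision. The members and lists were chosen with earlier results of these data known. Some members were tested and counted but are not reported here by name. Genes named were, per class, the 3 with the smallest p (1 where under 4 were tested), any with an unadjusted p under 0.05, those whose probes differed by over 0.5, and those well above background in no sample.

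Each ratio lies within 1 array, which makes the array the block. After removal of sex and dye, both animals of an array had deviations that correlated across probes at 0.57, 0.65, 0.41 and -0.05 for arrays 1 to 4. The 2 animals differ in both sex and dye, so this removal alone pushes the values above 0. They are no test of the block. Lone carriage returns, 2 in number, were read as line ends. The fit was tested on simulated data, and figures were drawn with matplotlib 3.10.9.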

Additional observations from a re-analysis of the deposited data

Results flagged for a closer look

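Among the named genes, 28 groups of 4 samples were compared with Dixon's critical value, and a sample far from the other 3 was found in 8 of them, 6 in male replicate 2. Chance gives about 1 in 20 for a single group of independent samples. These groups share the same animals, and most genes were named by their p in these data, so that rate does not carry over directly. In males, replicate 2 was the highest sample for Gabra4 (8.87), Gria1 (11.27), Gria2 (13.89), Gria3 (13.51), Grik4 (9.94) and Grin2a (10.69), all in log2 level, beside the marker values of that sample given in the report, whose part was not tested. In females, replicate 2 was the highest for Grin2a (8.96) and replicate 3 the lowest for Grin2c (11.82). Levels here were not corrected for dye.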

How the results depend on the processing

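Counts and medians stayed within 1.5 times their value, or within 1 SD, in 159 of 176 alternative settings. This rule is wide for the class medians. It counted as kept the AMPA median of -0.41, which was -0.08 without replicate 2, and the NMDA median of -0.16, which was -0.03. It also kept the glycine median of -0.12, which was -0.33 without replicate 4. The 8 receptor probes at an unadjusted limma p under 0.05 became 1 with no dye term, 5 with median centring and 1 to 24 when 1 array was left out. Without the array as block (separate channels) they were 4, and no adjusted p fell under 0.05. The adjusted count was 0 to 10 when 1 array was left out, and over all probes 0 to 1479, each time above 0 without replicate 4 alone. Over all probes the unadjusted count of 1870 became 638 with no dye term, 1142 with median centring and 401 to 6471 with 1 array left out. Its split into 1096 higher and 774 lower in females was 828 and 830 with no background correction, 371 and 771 with median centring, 747 and 1023 with the scanner's log ratio, 239 and 1500 with the authors' table, 255 and 383 with no dye term, and 911 and 898 with an intensity trend. The median over all subunits was -0.43 with the authors' table, where the median of all probes was -0.06. GABA-A stood at -0.41 with the scanner's log ratio and -0.45 with the authors' table, and kainate at -0.34 with the latter. Gria1 turned to 0.14 without replicate 2, in a range of -0.65 to 0.14 with 1 array left out. The cause of these shifts was not tested. Named genes kept direction and side of the threshold in 189 of 198 alternative settings. Without replicate 4, 8 of them passed the adjusted threshold. Signal was lower in Cy5 than in Cy3, and its effect on dim subunits was not tested.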
